A study of Homo sapiens with 4 samples.

Results

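The subunits of the transcription factor NF-κB and the proteins that hold it back were examined in 2 human cutaneous T cell lymphoma lines, MyLa and HH. Every probe set whose single gene symbol in the array annotation is NFKB1, NFKB2, REL, RELA, RELB, NFKBIA, NFKBIB, NFKBIE, TNFAIP3 or BCL3 was taken. This gave 20 of the 54675 probe sets, for 9 of the 10 genes listed and of the 19775 genes that the annotation names singly. The 2 probe sets of BCL3 carry a second symbol, so they fall outside this choice and are not described. MyLa is a mycosis fungoides line and HH a cutaneous T cell lymphoma line, per the labels. Both were kept in 0.1% serum for 40 hours, each without IL-32γ (control) and with the cytokine isoform IL-32γ at 5 ng/ml. No genetic change is named in the labels, and each line is 1 model, not a sample of patients. Total RNA of each of the 4 conditions was hybridised to 1 array, so an IL-32γ difference within a line has no replicate check. The labels do not say whether the arrays came from separate cultures.

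NF-κB is a dimer of Rel proteins. RELA, REL and RELB carry the domain that activates transcription, while NFKB1 and NFKB2 are made as the precursors p105 and p100, which are processed to the DNA-binding subunits p50 and p52. In resting cells the inhibitors IκBα (NFKBIA), IκBβ (NFKBIB) and IκBε (NFKBIE) keep dimers in the cytoplasm until the IκB kinase marks them for destruction, the canonical route. In the alternative route the kinase NIK (MAP3K14) drives processing of p100, which releases RELB with p52. TNFAIP3, also called A20, is a ubiquitin-editing enzyme that ends signalling, and BCL3 is a nuclear IκB protein. In T cells the antigen receptor and receptors of the TNF family switch the factor on, and persistent activity is a known feature of cutaneous T cell lymphoma.

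Several of these genes are themselves known targets of NF-κB, so the sequence just before their starts is shown for REL, NFKB1, TNFAIP3 and NFKBIA, the first 3 of which differed between the lines, as described further on. The 4 windows are the 250 bases before a RefSeq gene start in build GRCh38.p14, for NFKB1 the first of its 2 starts, printed from 5′ to 3′ on the gene's strand. Capitals mark matches to the κB consensus, a motif of 10 bases searched on both strands. It begins with GGG, ends with CC and also limits the bases between, so not every stretch from GGG to CC is marked. REL lies at chr2:60881324-60881573 on the plus strand, NFKB1 at chr4:102501109-102501358 on the plus strand, TNFAIP3 at chr6:137867009-137867258 on the plus strand and NFKBIA at chr14:35404750-35404999 on the minus strand.
REL: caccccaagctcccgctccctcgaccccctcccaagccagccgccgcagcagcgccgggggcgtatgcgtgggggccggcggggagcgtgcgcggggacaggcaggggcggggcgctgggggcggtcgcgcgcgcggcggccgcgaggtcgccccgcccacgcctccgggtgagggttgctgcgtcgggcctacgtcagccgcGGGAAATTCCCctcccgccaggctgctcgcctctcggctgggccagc
NFKB1: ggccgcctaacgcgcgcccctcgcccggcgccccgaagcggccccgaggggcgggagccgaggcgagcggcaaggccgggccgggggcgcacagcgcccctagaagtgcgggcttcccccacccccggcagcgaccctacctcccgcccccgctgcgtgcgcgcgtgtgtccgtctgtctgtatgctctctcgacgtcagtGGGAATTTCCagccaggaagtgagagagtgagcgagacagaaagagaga
TNFAIP3: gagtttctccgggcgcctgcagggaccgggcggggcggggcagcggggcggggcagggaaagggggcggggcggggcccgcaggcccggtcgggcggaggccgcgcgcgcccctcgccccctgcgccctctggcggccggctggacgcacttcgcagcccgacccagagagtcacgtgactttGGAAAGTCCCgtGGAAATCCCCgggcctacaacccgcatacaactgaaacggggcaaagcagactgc
NFKBIA: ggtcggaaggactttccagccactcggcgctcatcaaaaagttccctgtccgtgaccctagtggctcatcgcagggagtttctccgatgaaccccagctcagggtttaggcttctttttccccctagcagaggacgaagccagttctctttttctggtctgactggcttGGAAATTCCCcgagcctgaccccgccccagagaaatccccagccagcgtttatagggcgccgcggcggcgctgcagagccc
In REL the match GGGAAATTCC on the gene's strand overlaps GGAAATTCCC, the match on the other strand, between bases -47 and -37. NFKB1 has GGGAATTTCC from base -49 to -40. TNFAIP3 has a close pair, GGAAAGTCCC from -67 to -58 and GGAAATCCCC from -55 to -46, and NFKBIA has GGAAATTCCC from -81 to -72. These TNFAIP3 and NFKBIA matches are on the other strand, so as printed they do not begin with GGG. RELB and NFKBIE had no window in the RefSeq table and were not searched. Of 8 genes of the set with a window there, 6 held a match, and of their 13 windows 7 did. Over all 35116 windows of the same length, 5.21% held one. NFKB1 matched before 1 of its 2 starts, the one shown, NFKB2 before 2 of 3 and NFKBIB before 1 of 2, while no match was found before the starts of RELA and BCL3. A match describes letters and is not a measured binding site.

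**Figure D1:**
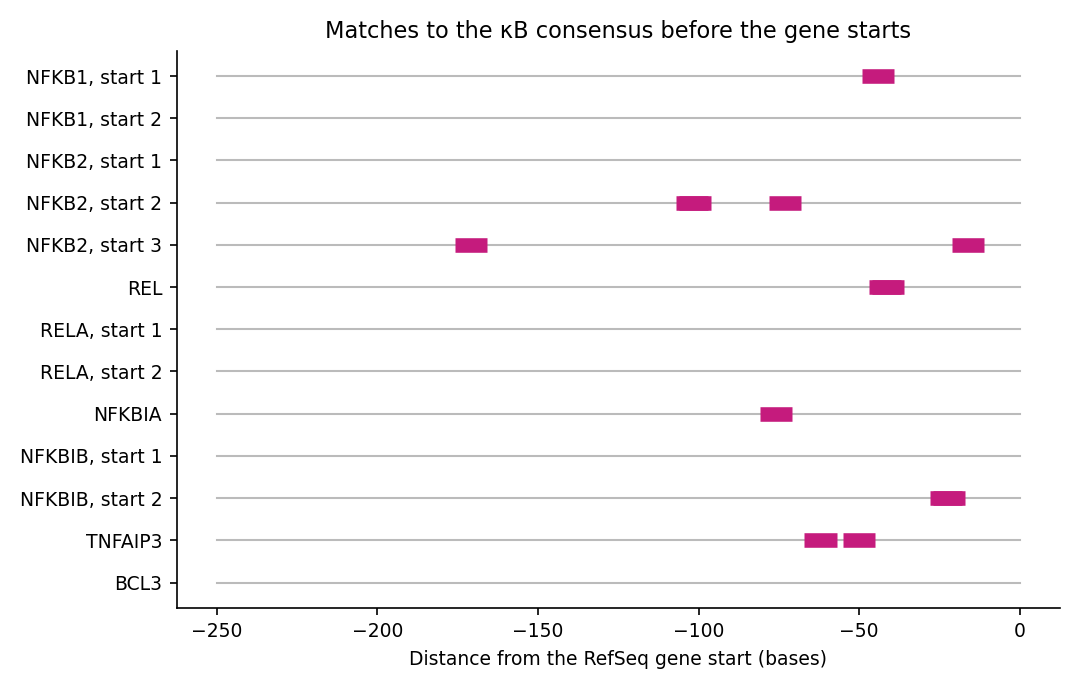
Position of matches to the κB consensus (pink bars) in the 250 bases before each RefSeq gene start; the x axis is the distance from the start in bases and each grey line is 1 start. Of 13 windows, 7 hold a match, and in REL, NFKB1, NFKBIA and TNFAIP3 all matches lie between bases -81 and -37.

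The 4 arrays held 23433 to 23686 probe sets at 5 or more, the level (log2) taken as measured. Of 13 T cell markers, 9 were at 5 or more on both HH arrays and 5 on both MyLa arrays: CD3D, CD3G, CD247, CD2 and ZAP70 were measured in both lines, while CD3E, CD4, CD5 and CD6 lay below 5 in MyLa and CD7, CD28, TRAT1 and LCK in both lines. Summed on the linear scale, the T cell markers came to 8971 and 9737 in MyLa and to 38051 and 35155 in HH, control first. Of 6 fibroblast markers, 2 (COL1A1 and COL3A1) were at 5 or more on both MyLa arrays. The fibroblast list summed to 11723 and 11002 in MyLa against 51.2 and 74.5 in HH, control first. COL1A2, DCN, LUM and PDGFRB were at or near the lowest value on the 4 arrays. The myeloid marker ITGAM was measured in MyLa alone and the keratinocyte marker KRT10 in both lines, and no B cell or natural killer marker reached 5. The 5' ACTB control probe set, which reads the far end of the transcript, was higher in HH (12.69 and 13.58) than in MyLa (10.12 and 11.81). It was also higher with IL-32γ in each line. The 5' GAPDH control read 14.06 and 14.75 in MyLa and 14.73 and 14.88 in HH, control first, so the lines overlapped. The 3' probe sets of ACTB and GAPDH lay closer together. ACTB 3' read 15.14 and 15.07 in MyLa and 15.27 and 15.24 in HH, control first. GAPDH 3' read 15.00 and 15.04 in MyLa and 15.13 and 15.16 in HH. The part of these markers and controls in the results was not tested.

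Between the lines, HH had the higher values of NFKB1, NFKBIE and TNFAIP3, and MyLa the higher values of REL, RELB and NFKB2. RELA, NFKBIA and NFKBIB differed by less than 2-fold in the mean of their arrays. In limma, where both arrays of each line served as replicates, 9 of 18 tested probe sets passed an adjusted p of 0.05 and 2-fold, 5 higher in MyLa and 4 lower. Differences of this size were common: of 25306 probe sets tested, 35.0% were called, 18.2% higher in MyLa and 16.8% lower. The median difference of the 18 was 0.49 (log2, MyLa minus HH) against -0.011 over all tested. The replicates of a line differ in IL-32γ, so their spread holds its effect. In such bulk RNA, fewer cells that express a gene and less of its RNA per cell cannot be told apart.

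**Figure D2:**
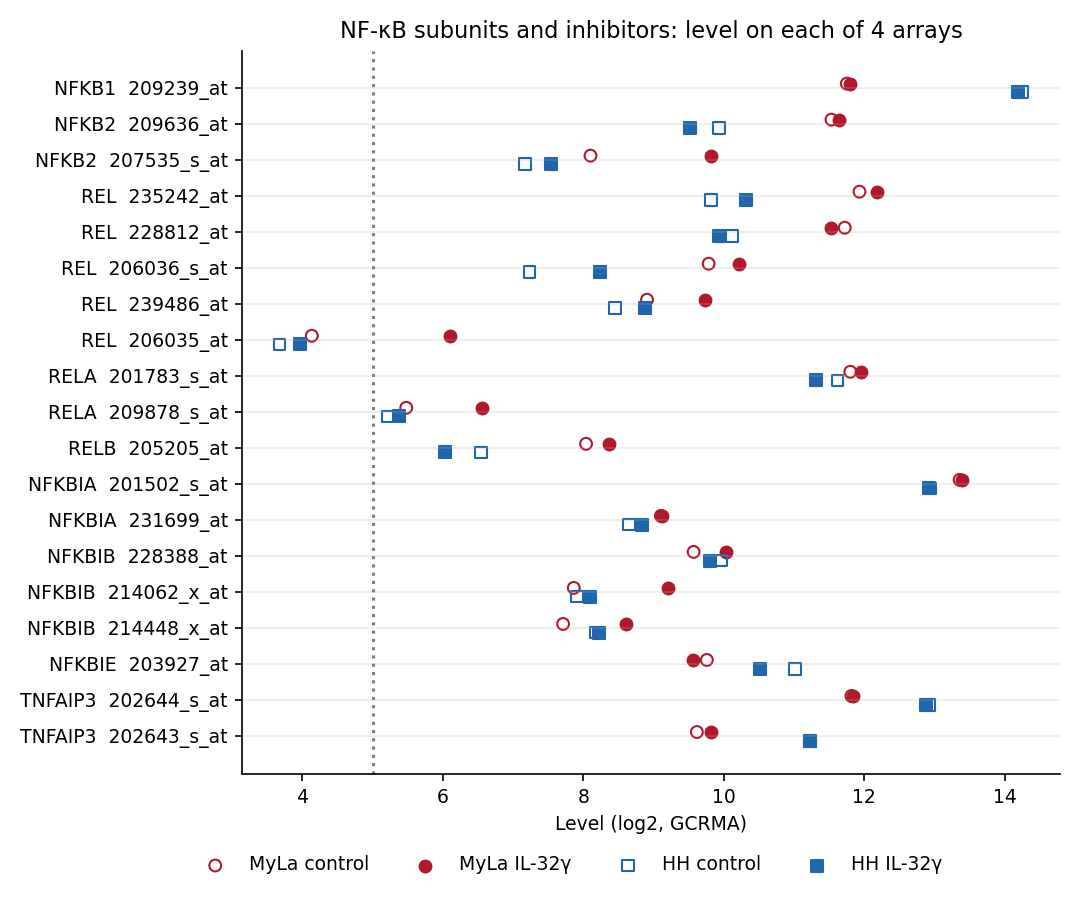
Level (log2, x axis) of the 19 probe sets at 5 or more on at least 1 array, a row each, on the 4 arrays (red circles MyLa, blue squares HH, open without and filled with IL-32γ); the dotted line is the level of 5. NFKB1 stood at 14.25 and 14.19 in HH and at 11.75 and 11.79 in MyLa, control first, while REL, RELB and NFKB2 lay to the right in MyLa.

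Among the precursor subunits, NFKB1 read 11.75 without and 11.79 with IL-32γ in MyLa, and 14.25 without and 14.19 with it in HH. The lines did not overlap, and the 2 arrays of a line lay close together. NFKB1 was 5.46-fold lower in MyLa (log2 difference -2.45 ± 0.11, SE, n = 2 arrays per line, limma adjusted p = 0.000638), the largest difference among the 18 probe sets. The other precursor went the opposite way. NFKB2 probe set 209636_at read 11.53 and 11.63 in MyLa, control first, and 9.94 and 9.52 in HH. It was 3.62-fold higher in MyLa (1.86 ± 0.19, SE, adjusted p = 0.00455). A second NFKB2 probe set, 207535_s_at, read 8.10 and 9.82 in MyLa and 7.17 and 7.54 in HH, so the 2 MyLa arrays lay 1.71 apart. Its difference of 1.60 ± 0.65 was not called (adjusted p = 0.118), but it was without the MyLa control array (2.46, adjusted p = 0.0193). The third, 211524_at, was at the lowest value of 2.13 on all 4 arrays.

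REL encodes c-Rel, the subunit most tied to lymphocyte activation, and has 5 probe sets here. Probe set 235242_at read 11.93 and 12.18 in MyLa against 9.81 and 10.32 in HH, control first, and 228812_at read 11.72 and 11.53 against 10.11 and 9.93. The third, 206036_s_at, read 9.78 and 10.21 against 7.23 and 8.24. In each of these the lower MyLa array stood above the higher HH array. The probe sets gave 3.97-fold (1.99 ± 0.23, adjusted p = 0.0062), 3.04-fold (1.60 ± 0.14, adjusted p = 0.00332) and 4.79-fold (2.26 ± 0.41, adjusted p = 0.019) higher values in MyLa. For 206036_s_at the call was lost when any array but the HH IL-32γ array was left out, with adjusted p up to 0.0799 and differences between 1.76 and 2.76. Another, 239486_at, at 8.91 and 9.73 in MyLa and 8.45 and 8.88 in HH, had the same sign but was not called (0.65 ± 0.36, adjusted p = 0.206). The fifth, 206035_at, reached 5 on the MyLa IL-32γ array alone (6.10) and was not tested.

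RELB, the partner of p52 in the alternative route, read 8.04 and 8.37 in MyLa and 6.54 and 6.03 in HH. The lines were clear of each other, with RELB 3.79-fold higher in MyLa (1.92 ± 0.25, SE, adjusted p = 0.00817). RELA encodes p65, the main activating subunit of the canonical route. Its probe set 201783_s_at read 11.80 and 11.95 in MyLa and 11.62 and 11.31 in HH. The difference of 0.41 (95% interval -0.053 to 0.88, adjusted p = 0.111) was not called. Probe set 209878_s_at of RELA, close to the level of 5, gave 0.72 (-0.46 to 1.90) and was not called either, except without the MyLa control array (1.254, adjusted p = 0.0244).

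Among the inhibitors, NFKBIA lay within a narrow range, at 13.36 and 13.39 in MyLa and 12.93 and 12.92 in HH (201502_s_at). The MyLa arrays were the higher pair, by 0.45 (0.15 to 0.74, adjusted p = 0.0331), which passed the p threshold but not the 2-fold minimum. The other NFKBIA probe set, 231699_at, gave 0.37 (0.023 to 0.72, adjusted p = 0.0743). NFKBIE read 9.76 and 9.56 in MyLa and 11.01 and 10.51 in HH, and so was 2.15-fold lower in MyLa (-1.10 ± 0.22, adjusted p = 0.0237). This call did not hold when any 1 of the 4 arrays was left out, with adjusted p from 0.0537 to 0.1 and differences from -1.35 to -0.85. NFKBIB overlapped between the lines on each of its 3 probe sets, with differences of -0.077, 0.53 and -0.042, and the widest 95% interval, that of 214062_x_at, ran from -0.92 to 1.99. Without the MyLa control array 214062_x_at was called (1.20, adjusted p = 0.0279).

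TNFAIP3 read 9.62 and 9.81 in MyLa and 11.23 on both HH arrays with probe set 202643_s_at, and 11.82 and 11.84 against 12.92 and 12.87 with 202644_s_at. Both probe sets put the MyLa arrays below the HH arrays. The first was 2.86-fold lower in MyLa (-1.52 ± 0.12, adjusted p = 0.00279) and the second 2.10-fold lower (-1.07 ± 0.10, adjusted p = 0.00415). The call of 202644_s_at was lost when either HH array was left out, with adjusted p up to 0.0651 and differences between -1.09 and -1.04. In all, 15 of the 18 probe sets did not overlap between the lines, where 80.2% of all tested probe sets did not.

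**Figure D3:**
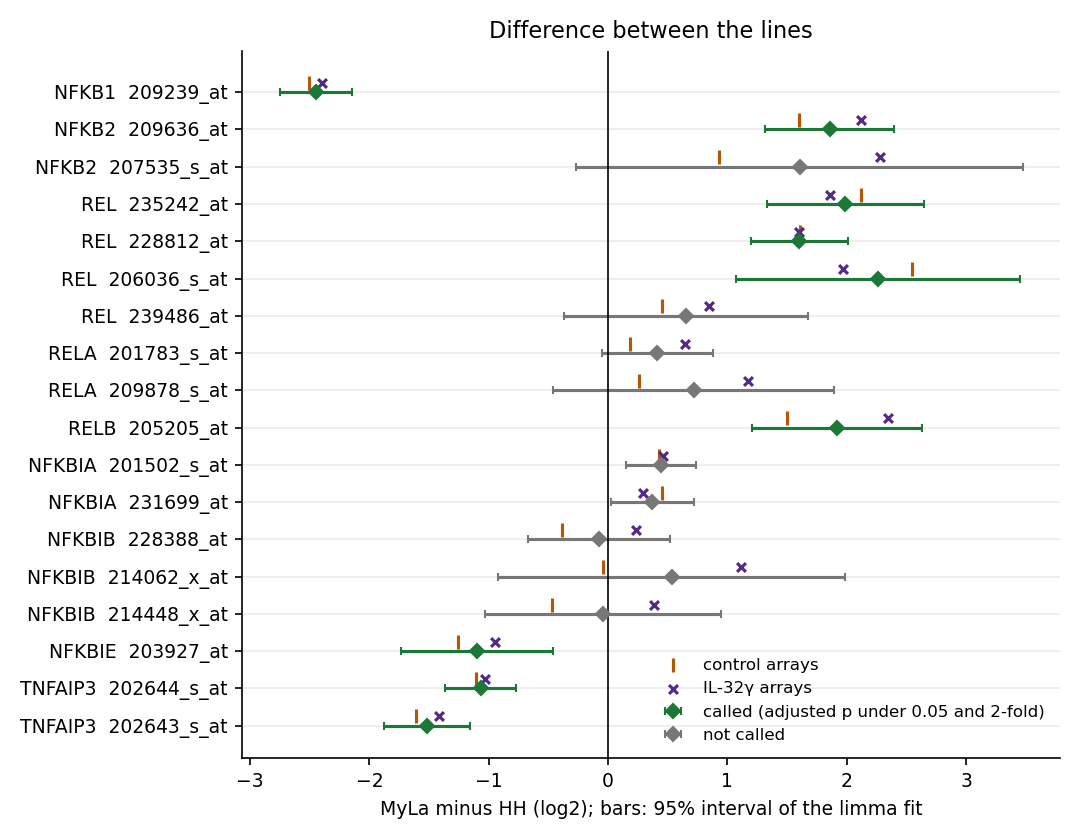
Difference between the lines (log2, MyLa minus HH, x axis) of the 18 tested probe sets, with the 95% interval of the limma fit (green called, grey not called); brown bars and purple crosses are the differences between control arrays alone and between IL-32γ arrays alone. NFKB1 lies at -2.45 and TNFAIP3 and NFKBIE also lie left of 0, while REL, RELB and NFKB2 lie right of it.

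The 9 called probe sets had the same direction on the control arrays alone and on the IL-32γ arrays alone, while the 3 NFKBIB probe sets were lower in MyLa on the control arrays (-0.39, -0.044 and -0.47) and higher on the IL-32γ arrays (0.24, 1.11 and 0.38). On the control arrays 5 of 18 probe sets were higher in MyLa by 2-fold or more and 4 lower, against 19.8% and 19.4% of all tested. On the IL-32γ arrays 8 were higher and 3 lower, against 19.9% and 18.7%. RELB differed by 1.495 without IL-32γ and by 2.35 with it, NFKB2 209636_at by 1.60 and 2.12, and NFKB1 by -2.50 and -2.39. By Euclidean distance between the 4 centred values, the genes most like NFKB1 over the 4 arrays were ZWINT, a kinetochore protein (0.078), PDE7A, a cAMP phosphodiesterase (0.079), and KIF4A, a mitotic kinesin (0.081). These 4 arrays come from 2 lines, so such a likeness mainly reads the gap between them.

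With IL-32γ in MyLa, NFKB2 207535_s_at, 2 NFKBIB, 2 REL and 1 RELA probe set stood above control by 1.5-fold or more. The probe sets of NFKB1, NFKBIA and TNFAIP3 lay at most 0.19 above control. Of 19 probe sets measured on at least 1 MyLa array, 6 were higher by 1.5-fold or more, where 11.0% of all 24232 were, and 0 were lower, against 9.13%. The median of the 19 was 0.25 (log2, IL-32γ minus control) and that of all -0.045. The 6 all had a mean level below 9.69, the median of the probe sets measured in MyLa, a division chosen after the values were seen. Of the 9 probe sets below that level 6 were higher, against 15.6% of all such probe sets, and of the 10 above it 0 were, against 6.33%. Taking for each of the 9 genes the probe set with the highest mean, 0 passed 1.5-fold, where 7.77% of all genes were higher on the same rule and 7.65% lower.

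NFKB2 207535_s_at went from 8.10 to 9.82 in MyLa, a 3.28-fold difference, but 209636_at of the same gene went from 11.53 to 11.63. NFKBIB went from 7.86 to 9.20 with 214062_x_at (2.53-fold) and from 7.71 to 8.61 with 214448_x_at (1.86-fold), and from 9.57 to 10.03 with 228388_at (1.38-fold). The NFKBIB probe sets thus shared a direction, though those named _x_at can carry probes shared with other transcripts. RELA 209878_s_at went from 5.48 to 6.55 (2.11-fold) while 201783_s_at went from 11.80 to 11.95. A brightest probe set under 1.5-fold beside another that was higher by 1.5-fold or more was found in 4 of the 6 genes of the set with several measured probe sets in MyLa (NFKB2, REL, RELA and NFKBIB), and in 19.6% of all 5264 such genes. The 5' controls of ACTB and GAPDH were higher on the IL-32γ array of MyLa too, by 1.69 and 0.68. The 3' controls of ACTB and GAPDH differed there by -0.075 and 0.043.

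For REL, the signs of the 4 probe sets measured on all arrays were the same in both lines. In MyLa 239486_at went from 8.91 to 9.73 (0.82), 206036_s_at from 9.78 to 10.21 (0.43) and 235242_at from 11.93 to 12.18 (0.25), while 228812_at went from 11.72 to 11.53 (-0.19). In HH the differences were 0.43, 1.01, 0.50 and -0.18 in the same order. REL 206035_at was below 5 on the MyLa control array (4.13), so its difference there is a bound, at least 2.15-fold. No test of a single line is possible with 1 array per condition.

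In HH, 1 of 18 measured probe sets was higher by 1.5-fold or more, REL 206036_s_at, at 7.23 without and 8.24 with IL-32γ (2.01-fold), where 5.45% of 23855 were. None was lower, against 4.02%. The lowest were RELB, from 6.54 to 6.03 (-0.52), NFKBIE, from 11.01 to 10.51 (-0.50), and NFKB2 209636_at, from 9.94 to 9.52 (-0.42). NFKBIA 201502_s_at (-0.0059) and both TNFAIP3 probe sets (0.0027 and -0.048) were within 0.05 of control. The median of the 18 was -0.0016, and that of all measured probe sets -0.025. The 5' controls of ACTB and GAPDH were higher with IL-32γ in HH by 0.89 and 0.15. The 3' controls of ACTB and GAPDH differed there by -0.027 and 0.031.

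**Figure D4:**
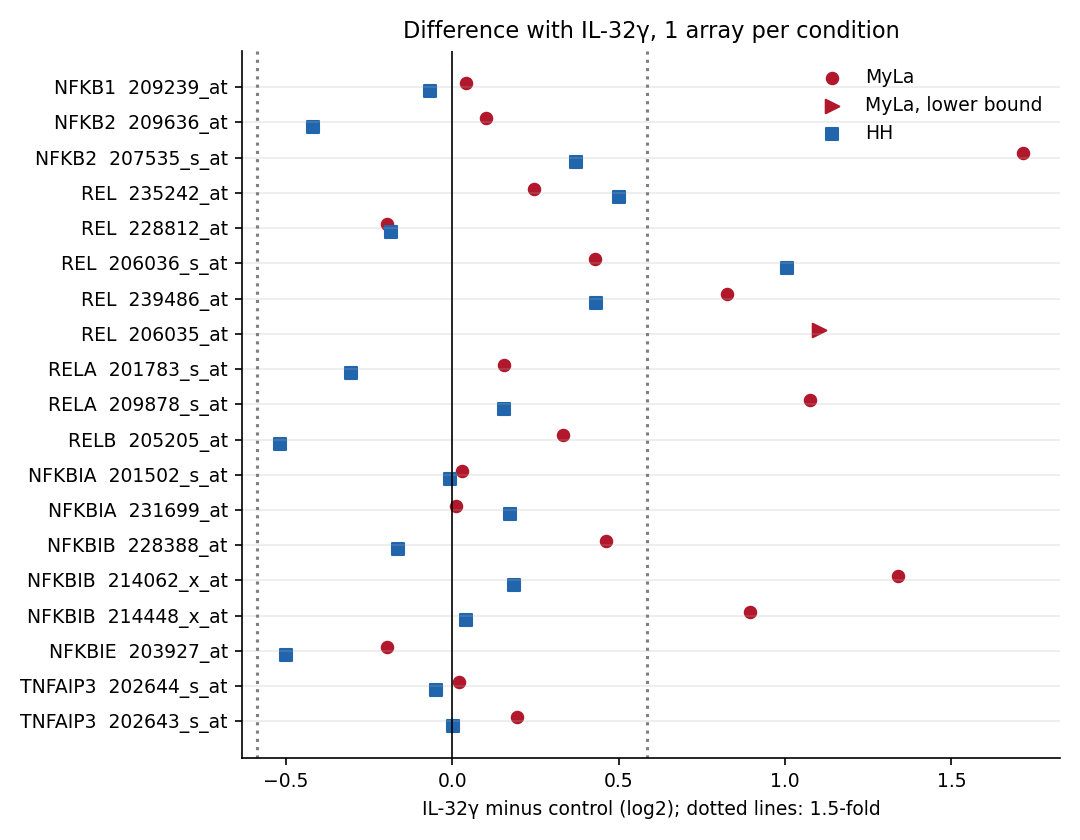
Difference with IL-32γ (log2, IL-32γ minus control, x axis) in MyLa (red circles, the triangle a lower bound) and HH (blue squares), 1 array per condition; the dotted lines mark 1.5-fold. In MyLa 6 probe sets lie to the right of the dotted line and in HH 1, REL 206036_s_at.

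With the lines as replicates (n = 2), limma called 0 of the 18 probe sets for IL-32γ at an adjusted p of 0.05, and 0 of all 25306 tested. At an unadjusted p under 0.05 there were 2 of 18, both REL and both higher, against 10.2% of all probe sets in either direction and 4.87% higher. These were 206036_s_at (0.72, 95% interval 0.11 to 1.33, adjusted p = 0.483) and 239486_at (0.63, 0.13 to 1.12, adjusted p = 0.483), each higher in both lines. For NFKB1 the interval of the mean difference ran from -0.40 to 0.37, for NFKBIA 201502_s_at from -0.36 to 0.39 and for TNFAIP3 202644_s_at from -0.39 to 0.37. The fit has 1 residual degree of freedom, which leaves such intervals wide.

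Other genes of the pathway were counted with 1 probe set per gene, the one with the highest mean, and compared with 11010 genes tested between the lines, of which 18.7% were called higher in MyLa and 16.8% lower. Within a line 7.77% of genes were higher with IL-32γ by 1.5-fold or more in MyLa and 7.65% lower, and 1.14% and 4.46% in HH. Where a line lay below 5 on both its arrays, the difference between lines is a bound.

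Of 9 tested ligands of receptors that activate NF-κB, 4 were higher in MyLa and 2 lower. TNFSF4, the OX40 ligand, was higher by at least 7.18 (log2, adjusted p = 4.8e-05), TNF by at least 3.85 (adjusted p = 0.000286) and LTB, a subunit of lymphotoxin, by at least 3.71 (adjusted p = 0.0107), while TNFSF14, or LIGHT, was lower (-3.61, a bound, adjusted p = 0.000131). Of 8 tested receptors 4 were higher in MyLa and 2 lower. The 2 TNF receptors went opposite ways: TNFRSF1A read 9.14 and 9.22 in MyLa and below 5 in HH (at least 4.18, adjusted p = 8.41e-05), and TNFRSF1B read 5.99 and 6.47 in MyLa and 12.86 and 12.91 in HH (-6.65, adjusted p = 0.000157). TNFRSF18, or GITR, was higher in MyLa by at least 4.17 (adjusted p = 0.000309), and TNFRSF8, encoding the lymphoma antigen CD30, was lower (-4.13, adjusted p = 0.000263). With IL-32γ in MyLa, 2 of 7 ligands were higher, LTB (1.57) and CD70 (1.22), and 1 lower, TNFSF13B, or BAFF (-0.92). The other measured TNFSF13B probe set stood at -0.46, short of 1.5-fold. Of 9 receptors 1 was higher with IL-32γ in MyLa, the death receptor TNFRSF25 (1.91). In HH the CD30 ligand TNFSF8 was lower (-1.34), 1 of 6 ligands, and 0 of 4 receptors passed 1.5-fold.

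Of 19 tested adaptors and kinases 2 were higher in MyLa and 3 lower. MAP3K14, the kinase NIK of the alternative route, read 9.28 and 8.82 in MyLa and 7.97 and 7.51 in HH (1.31 ± 0.26, adjusted p = 0.0188), the same direction as RELB and NFKB2 209636_at. RBCK1, or HOIL-1, of the linear ubiquitin ligase, was also higher (1.26, adjusted p = 0.0048), and MYD88, the adaptor of Toll-like receptors, lower (-1.34, adjusted p = 0.00209). TRAF5 was below 5 in MyLa and at 12.43 and 12.34 in HH, so its difference of -7.38 is a bound (adjusted p = 4.8e-05). With IL-32γ 0 of 18 passed 1.5-fold in MyLa and 0 of 19 in HH. In the antigen receptor branch 2 of 6 tested genes were higher in MyLa, the protein kinase PRKCQ by at least 4.24 (adjusted p = 0.000577) and the phosphatase subunit PPP4R1 by at least 6.10 (adjusted p = 5.58e-05). CASP8 (0.75) and PDPK1 (0.71) were higher with IL-32γ in MyLa, but the other measured PDPK1 probe sets stood at -0.20 and -0.17. In HH 0 of 4 passed 1.5-fold.

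Of 13 tested inhibitors and feedback regulators outside the set, 3 were higher in MyLa and 2 lower. Atypical IκB proteins were split: NFKBIZ, or IκBζ, was higher in MyLa (1.79, adjusted p = 0.0007) and NFKBID, or IκBNS, lower (-1.52, a bound, adjusted p = 0.00199). NLRC5, known for driving MHC class I genes, was lower (-3.90, adjusted p = 0.00462) and NFKBIL1 higher by at least 2.51 (adjusted p = 0.0256). With IL-32γ in MyLa NFKBIL1 went from 6.76 to 8.25, NLRC5 from 9.22 to 8.06 and TRAF3, which restrains NIK, from 11.24 to 10.58. The other measured TRAF3 probe set stood at -0.576, just short of 1.5-fold. None of 12 passed 1.5-fold in HH.

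Of 23 tested target genes outside the set, 11 were higher in MyLa and 3 lower, with a median of 0.92 (log2) against 0.025 over all genes. The IL-2 receptor chain IL2RA was higher by at least 7.84 (adjusted p = 0.000141) and the chemokine CXCL8 by at least 4.10 (adjusted p = 8.68e-05), the survival gene BCL2L1 by 4.18 (adjusted p = 0.00121) and STAT5A by 4.10 (adjusted p = 0.000139). The list was not tested as a list, and its genes also answer to other factors. With IL-32γ in MyLa 3 of 22 were higher, CCL5 (1.55), TNFAIP2 (0.84) and BCL2L1 (0.73, its other measured probe sets at 2.92 and 3.51), and 2 lower, with ICAM1 at -0.70 although its other measured probe sets ran from -0.12 to 1.01. In HH 1 of 20 was higher, the chemokine CCL22 (0.60).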

How the data were processed

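Biotin-labelled total RNA was measured on 4 arrays, 1 per line and condition. The authors deposited log2 expression values per probe set made with GCRMA, per the submitters' processing notes, and their range, 2.13 to 16.0, gave the scale. Neither the version nor a joint normalisation of the arrays is given in the sources used here. Symbols came from the array annotation (41097 probe sets with 1 symbol, 1801 with several and 11777 not listed), updated by Entrez identifier for 41043 of them with RefSeq GRCh38.p14. Promoter windows are RefSeq's of that build.

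Values below 5 were set to 5. Within a line, probe sets at 5 or more on at least 1 of its 2 arrays were counted at 1.5-fold, with no test. Probe sets at 5 or more on at least 2 arrays were fitted with limma 3.58.1 in R 4.3.3: IL-32γ with the line as a block, and MyLa against HH without one and with a 2-fold minimum. Tests were two-sided and adjusted by Benjamini-Hochberg over 25306 probe sets at 0.05, or over 11010 genes for the pathway lists. The scripts were tested on simulated data. The members and gene lists were chosen with earlier results of these data known. Every measured probe set of the set is named, and of each other list up to 4 called genes with the largest differences per comparison. The number of arrays limits precision, and p-values measure only the spread between these arrays, which may be technical. Alternatives were other floors, scalings, probe set rules, thresholds, blocks and arrays left out. Tables and plots used Python 3.11.15, pandas 2.3.3 and matplotlib 3.10.9.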

Additional observations from a re-analysis of the deposited data

Results flagged for a closer look

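In 7 of the 18 tested probe sets the IL-32γ difference was above 0 in MyLa and below 0 in HH. The share of all tested probe sets with opposite signs was not counted, so the 7 cannot be read as particular to this set. With 1 array per condition the difference between the 2 responses was not tested. The response in MyLa minus that in HH was 0.85 for RELB, 0.63 for NFKBIB 228388_at, 0.52 for NFKB2 209636_at and 0.46 for RELA 201783_s_at (log2). It was 0.11 for NFKB1, 0.070 for TNFAIP3 202644_s_at and 0.037 for NFKBIA 201502_s_at, where both responses were close to 0.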

How the results depend on the processing

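The between-line count of 9 called probe sets was 4 when no floor and no filter were used, with calls left for NFKB1, REL 228812_at and both TNFAIP3 probe sets; the fit then holds all 54675 probe sets. Leaving out 1 array gave 6 to 10 called. With IL-32γ as a block 10 were called, NFKB2 207535_s_at being added (adjusted p = 0.0409). Within MyLa the count of 6 past 1.5-fold fell to 0 with 1 probe set per gene and to 2 without _s_at, _x_at and _a_at probe sets, fewer probe sets being counted in both. With a floor of 6 REL 206035_at and RELA 209878_s_at no longer passed. Within HH the count of 1, a probe set higher with IL-32γ, was 0 under both of those probe set rules. At the lowest fold threshold tried it was 7, of which 4 were higher and 3 lower with IL-32γ. The share of all probe sets past that threshold was not counted. For IL-32γ across lines, limma called 0 under each of the 9 alternatives run. Leaving out an array there leaves no test. No called difference of a single probe set changed sign under any alternative run. Depth is not defined for arrays; REL 206035_at, RELA 209878_s_at and RELB in HH lie close to the level of 5, where differences are least certain.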
